A study of Homo sapiens with 3 samples.

Results

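Respiratory complex I carries electrons from NADH to ubiquinone and pumps protons across the inner mitochondrial membrane. It is an L-shaped enzyme with a peripheral arm in the matrix, which holds the NADH site and the iron-sulfur clusters, and a membrane arm, which holds the proton pumps. Most of its subunits are encoded in the nucleus, translated in the cytosol and imported, whereas the pumping core of the membrane arm is encoded by mitochondrial DNA. The core subunits do the catalysis and are shared with bacteria. The accessory subunits, most of them short proteins, surround the core and are needed for its assembly and stability.

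The genes described here are the nuclear NDUF subunits of complex I, chosen by name alone. They are the genes whose symbol is NDUFA, NDUFB, NDUFC, NDUFS or NDUFV followed by a number, which 37 of the 63241 genes in the table met. By letter there were 13 A, 11 B, 2 C, 8 S and 3 V genes. The letters only partly follow the structure. NDUFS5 sits in the membrane arm, NDUFA2, NDUFA5, NDUFA6, NDUFA7, NDUFA9 and NDUFA12 belong to the peripheral arm, and NDUFA4 is now counted as a subunit of complex IV (cytochrome c oxidase). The genes were therefore also read by structure, as 7 core and 9 accessory subunits of the peripheral arm, 20 accessory subunits of the membrane arm, and NDUFA4. NDUFAB1, the mitochondrial acyl carrier protein that is also a complex I subunit, falls outside the name rule and is given separately.

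Ribosome profiling (Ribo-seq) counts the mRNA fragments covered by ribosomes, called footprints, and was carried out in HEK293T. This human line, derived from embryonic kidney, carries SV40 large T antigen, which binds p53, and in all 3 groups it also expressed a p53 construct, which was wild type (WT), G245S or R273H. G245S and R273H are hotspot mutations of the DNA-binding domain, and the libraries address whether ribosome occupancy differs between cells with mutant and WT p53. All dishes were briefly given cycloheximide, which holds ribosomes on mRNA, and footprints were made with micrococcal nuclease and taken from monosomes. Each group had 3 dishes (n = 3), which the methods call biological replicates of 1 cell line per construct, made by lentivirus and puromycin selection. The sample labels name both stable and transient expression, and those of the mutant dishes give the WT construct as treatment, so the groups follow the sample titles. Per the labels, dishes of a group were pooled when RNA was reverse transcribed, with a separate pool per group, so p-values measure the spread between dishes of a pool, and group and pool cannot be told apart. Footprint counts alone do not separate the amount of an mRNA from the ribosomes on each copy.

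The libraries held 18.7 to 24.6 M counts. MDM2 and CDKN1A, textbook targets of WT p53 that check the labels, were both lower in each mutant, with median log2 fold changes of -2.70 in G245S and -2.81 in R273H. Epithelial markers were low apart from KRT18 (108 to 120.3 CPM) and KRT8 (32.4 to 44.4 CPM), with EPCAM and CDH1 at most 8.57 CPM. Of the markers of other cells, PTPRC, PECAM1 and ALB had at most 3 counts in a library, DES at most 0.78 CPM, and COL1A1 25 to 34.0 CPM. KRT8 was higher in R273H than in WT (0.36 ± 0.05 (SE), edgeR adjusted p = 1.34e-06), and COL1A1 was lower in both mutants (-0.21 and -0.24, edgeR adjusted p = 0.0178 and 0.00448). Their part in the results was not tested. Dish 3 of every group stood apart from dishes 1 and 2, with a chi-square per degree of freedom of 1.88 to 2.62 against 1.48 to 1.56 between dishes 1 and 2, so counts are also given without it.

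By median, the genes differed from protein-coding genes in some features that the name rule did not use, though their ranges were wide. In GENCODE v44 (GRCh38), their median coding length was 432 nt (range 174 to 2181 nt), against 1269 nt for the 20045 protein-coding genes of the table, and 27 of 37 were under 600 nt. They had a median of 4 exons against 8. Untranslated regions were short too, with medians of 41 nt at the 5′ end (131 nt over protein-coding genes) and 132 nt at the 3′ end (1018 nt). The range at the 3′ end was wide, from 51 nt in NDUFS8 to 9368 nt in NDUFS1. The GC content of the coding region was ordinary at 52.4% against 52.9%, with NDUFS7 highest at 66.2%. The genes lie on 18 chromosomes, with 6 on chromosome 19 and 4 on chromosome 11.

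All 37 genes passed the filter on low counts and were deeply covered, at 64.3 to 335 CPM (counts scaled to a common library total). Their median level was 171.6 CPM, against 11.05 CPM over all genes tested. Small changes are more readily called in well-covered genes, so the shares of genes called given below are not at equal coverage. Per kilobase of coding region, footprint density ran 14.2-fold, from 83.6 CPM per kb for NDUFS1 to 1187 CPM per kb for NDUFA4. The median was 366 CPM per kb, against 15.4 CPM per kb over the protein-coding genes tested, and each of the 37 genes lay above that median. The middle of the distribution was narrower, with quartiles of 210 and 556 CPM per kb, a 2.64-fold range.

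Density differed among the structural groups, which overlapped. The 7 core subunits lay between 83.6 and 272 CPM per kb. The 9 accessory subunits of the peripheral arm had a median of 365 CPM per kb (83.9 to 524 CPM per kb). The 20 accessory subunits of the membrane arm had a median of 530 CPM per kb, from 139.5 CPM per kb in NDUFA10 to 1054 CPM per kb in NDUFS5, a small cysteine-rich subunit on the intermembrane-space side. Density also fell with coding length (Spearman rho -0.81 over the 37 genes, -0.41 over 13615 protein-coding genes). Core subunits were longer by median, at 792 nt, against 384 nt and 399 nt for accessory subunits of the peripheral and membrane arms. Some accessory subunits, such as NDUFV3, were longer than most core subunits. Without division by length, mean CPM had a rho of -0.07 with coding length over the 37 genes. A difference between the groups in density was not tested. The order of the genes was nearly the same in the groups, with a Spearman rho of 0.992 between WT and G245S and of 0.989 between WT and R273H. These are descriptions over genes of the same libraries. Neighbours in the order often differed by less than their spread, which within a group had a median coefficient of variation of 1.93% to 2.48%. The density of NDUFV3 is uncertain, since its canonical transcript is a long form of 1419 nt.

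**Figure D1:**
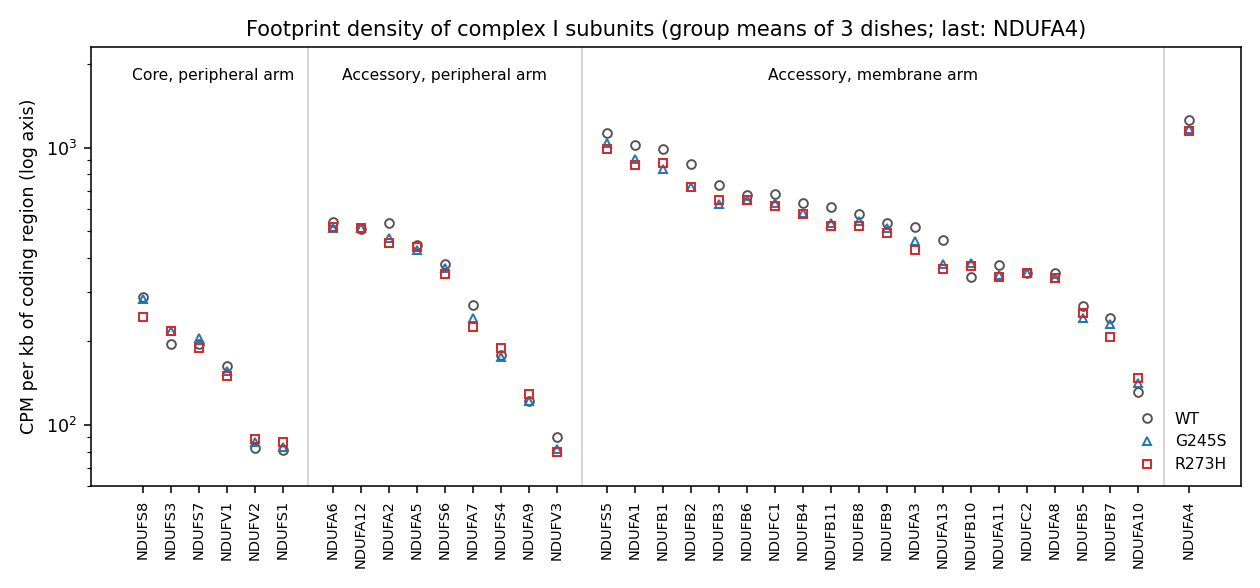
Footprint density (CPM per kb of coding region, log axis) of 36 of the genes, ordered within each structural group. Each symbol is the mean of 3 dishes of WT (circle), G245S (triangle) or R273H (square). Core subunits lie at or below 272 CPM per kb on average, and NDUFA4, at the far right, is highest at 1187 CPM per kb.

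As a group, the genes took a smaller share of all footprints in both mutants. The share was 0.698%, 0.702% and 0.699% in the WT dishes, 0.656%, 0.656% and 0.648% in the G245S dishes, and 0.648%, 0.649% and 0.653% in the R273H dishes. The WT dishes did not overlap with those of either mutant, whereas the mutants overlapped with each other. This share is a description and was not tested. Summed by structure, the core subunits had 1190 ± 7.21 CPM in WT, against 1214 ± 19.0 for G245S and 1172 ± 15.0 for R273H (SD, n = 3). The accessory subunits of the membrane arm had 4146 ± 27.1 CPM in WT, against 3828 ± 42.5 for G245S and 3761 ± 47.1 for R273H, so the lower share lay mainly in their sum.

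In cells with G245S p53, 17 of the 37 genes had fewer footprints than in WT, 3 had more, and 17 did not pass the test (edgeR quasi-likelihood test, adjusted p under 0.05). Over all 19820 genes tested, 12.1% were called lower and 12.6% higher. The median log2 fold change of the 37 genes was -0.07, against -0.0007 over all genes. Called falls lay between 5.99% and 18.2%, and the largest called rise was 12.2%. In 20 genes every G245S dish lay below every WT dish and in 4 every G245S dish lay above, where 18.8% and 18.6% of all genes did so. With dishes 1 and 2 alone the counts were 16 lower and 4 higher, beside 9.88% and 11.6% of all genes. After the dependence of counts on coding length and on GC content had been fitted and removed in each library (the length and GC trend), 11 were lower and 7 higher, with a median of -2.3e-05. In that fit 16.2% of the 13615 genes tested were lower and 21.2% higher.

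In cells with R273H p53, 22 of the 37 genes had fewer footprints than in WT, 5 had more, and 10 did not pass the test. The background was 14.6% lower and 14.2% higher. The median log2 fold change was -0.12, against -0.002 over all genes, with called falls of 5.96% to 21.2% and a largest called rise of 12.4%. Every R273H dish lay below every WT dish in 24 genes and above in 5, against 20.9% and 20.3% of all genes. With dishes 1 and 2 alone 21 were lower and 6 higher, beside 12.7% and 13.1% of all genes. With the length and GC trend removed, 14 were lower and 8 higher, with a median of -0.03, where 17.5% and 21.2% of all genes were called.

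Both comparisons share the WT dishes. The 17 genes lower in G245S were also called lower in R273H, as were 5 others (NDUFB7, NDUFB9, NDUFS6, NDUFS8 and NDUFV1). NDUFB10, NDUFS3 and NDUFA10 were higher in both, and NDUFS1 and NDUFA9 were called higher against WT in R273H alone. No gene was called in opposite directions. The 10 genes called in neither mutant, among them NDUFA5, NDUFA6, NDUFA8, NDUFA12, NDUFB6, NDUFC2, NDUFS4, NDUFS7 and NDUFV2, had log2 fold changes between -0.07 and 0.11.

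**Figure D2:**
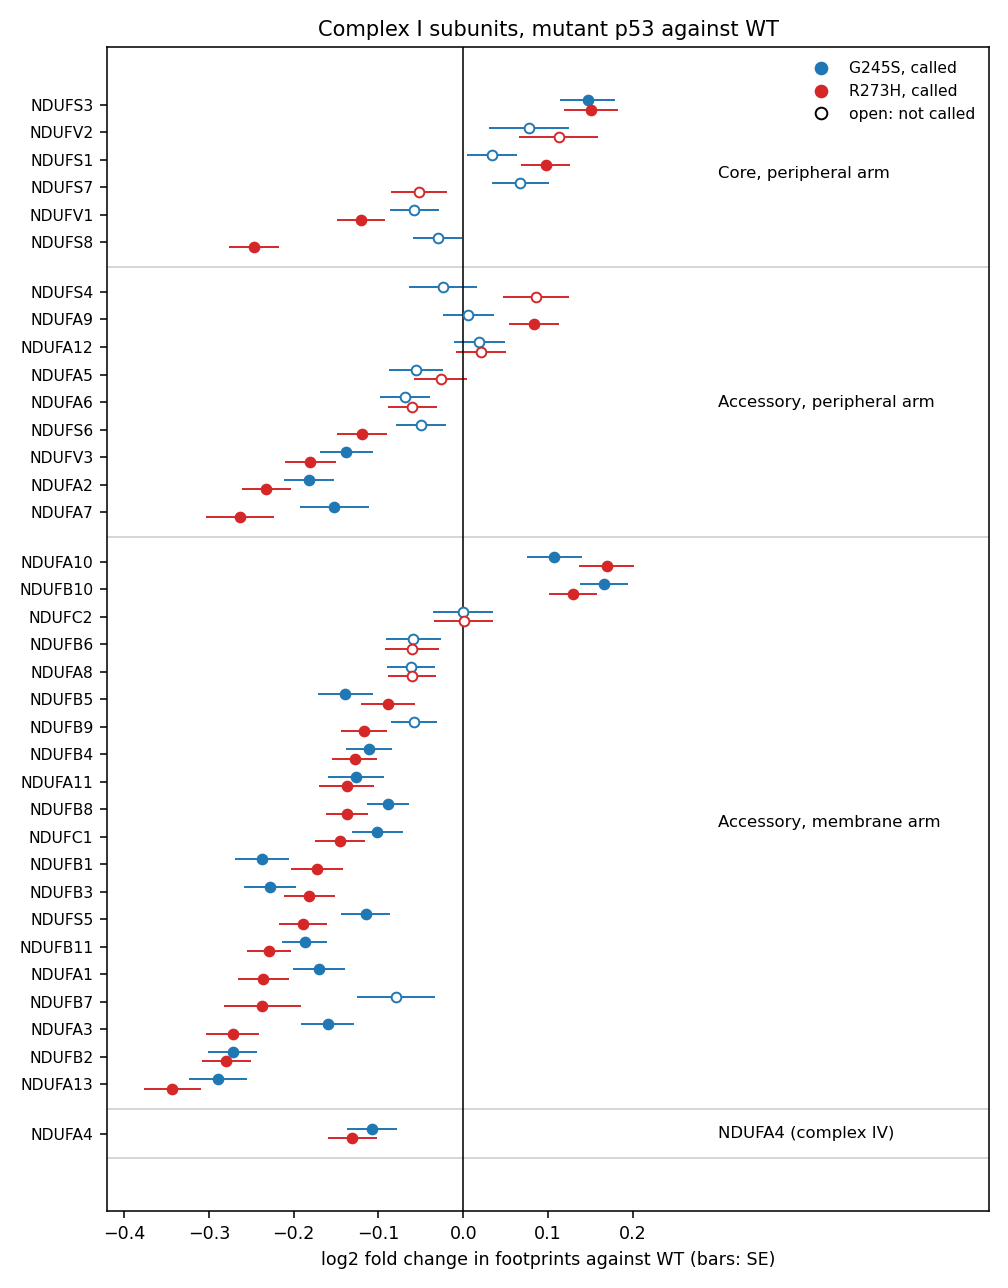
Log2 fold change in footprints against WT of 36 of the genes, grouped by structure, for G245S (blue) and R273H (red). Bars are the SE of the fit, filled points passed the edgeR test and open points did not. The accessory subunits of the membrane arm lie mostly left of 0, from -0.34 (NDUFA13, R273H) to 0.17 (NDUFA10, R273H), and the core subunits lie on both sides.

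The 20 accessory subunits of the membrane arm made up most of the genes that fell. In G245S, 13 of the 20 fell and 2 rose, with a median log2 fold change of -0.11. In R273H, 15 fell and 2 rose, with a median of -0.14. The shares of all genes called lower and higher were 12.1% and 12.6% in G245S, and 14.6% and 14.2% in R273H. Of the 9 accessory subunits of the peripheral arm, 3 fell and 0 rose in G245S (median -0.06), and 4 fell and 1 rose in R273H (median -0.06). By the letters alone, 15 of the 26 A, B and C genes were lower and 2 higher in G245S, while 17 were lower and 3 higher in R273H. Of the 11 S and V genes, 2 were lower and 1 higher in G245S, while R273H had 5 lower and 2 higher. With the length and GC trend removed, G245S had 8 of the 20 membrane-arm accessory subunits lower and 3 higher, and R273H had 9 lower and 3 higher. In that fit 16.2% of the genes tested were lower and 21.2% higher in G245S, and 17.5% and 21.2% in R273H. A difference between the arms was not tested.

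NDUFA13, a membrane-arm accessory subunit also known as the cell-death regulator GRIM-19, had the largest fall among the 37 genes in both mutants (ENSG00000186010, chromosome 19, positions 19515736 to 19529054, plus strand). It had 208, 199 and 195 CPM in the WT dishes, 171, 165 and 156 CPM in the G245S dishes, and 164, 157 and 153 CPM in the R273H dishes. Both mutants lay below every WT dish and overlapped with each other. Against WT, G245S differed by -0.29 ± 0.03 and R273H by -0.34 ± 0.03 on the log2 scale (SE, edgeR adjusted p = 3.26e-07 and 1.11e-08). The gene overlaps YJEFN3 and a read-through gene on the same strand, between which reads could be shared.

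NDUFB2, a small accessory subunit of the membrane arm, came next (ENSG00000090266, chromosome 7, positions 140690777 to 140722790, plus strand). Its WT dishes had 276, 284 and 263 CPM, its G245S dishes 233, 228 and 221 CPM, and its R273H dishes 226, 227 and 225 CPM. All 6 mutant dishes were below the lowest WT dish, and the log2 fold changes were -0.27 ± 0.03 and -0.28 ± 0.03 (edgeR adjusted p = 3.33e-08 and 1.44e-08). It overlaps ADCK2 on the same strand, and BRAF and an antisense RNA on the other, and the strand setting of the counting is not given.

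NDUFB1 and NDUFB3, 2 further short membrane-arm subunits, were among the 5 largest falls in G245S. NDUFB1 had 167, 174 and 175 CPM in WT, 145, 142 and 151 CPM in G245S, and 154, 149 and 156 CPM in R273H. NDUFB3 had 209, 213 and 224 CPM in WT, 184, 181 and 187 CPM in G245S, and 185, 189 and 196 CPM in R273H. In both genes the mutant dishes lay below WT and overlapped with each other. Log2 fold changes in G245S were -0.24 ± 0.03 for NDUFB1 and -0.23 ± 0.03 for NDUFB3 (edgeR adjusted p = 1.55e-06 and 1.81e-06), and in R273H -0.17 ± 0.03 and -0.18 ± 0.03 (8.89e-05 and 3.16e-05).

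NDUFB11, an X-linked membrane-arm subunit, had 286, 277 and 277 CPM in WT, 250.1, 248 and 241 CPM in G245S, and 239.9, 240.3 and 237 CPM in R273H. The 3 groups did not overlap. Against WT, G245S differed by -0.19 ± 0.03 and R273H by -0.23 ± 0.03 on the log2 scale (edgeR adjusted p = 3.49e-06 and 8.49e-08), while the direct difference between the mutants was 0.04 (95% interval -0.01 to 0.10, edgeR adjusted p = 0.466).

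NDUFA3 and NDUFA7 were among the 5 largest falls in R273H. NDUFA3, a short subunit of the membrane arm, had 127, 133 and 130.01 CPM in WT, 115, 119 and 115 CPM in G245S, and 107, 108 and 108 CPM in R273H. NDUFA7, a peripheral-arm accessory subunit, had 88.6, 95.8 and 89.9 CPM in WT, 82.5, 86.2 and 78.2 CPM in G245S, and 74.0, 77.5 and 76.98 CPM in R273H. The 3 groups did not overlap in either gene, with R273H lowest. Log2 fold changes in R273H were -0.27 ± 0.03 and -0.26 ± 0.04 (edgeR adjusted p = 1.11e-07 and 9.18e-06), and in G245S -0.16 ± 0.03 and -0.15 ± 0.04 (0.000355 and 0.0060). Directly, G245S exceeded R273H by 0.11 in both genes, short of the threshold (edgeR adjusted p = 0.0523 and 0.15). NDUFA7 overlaps the ribosomal protein gene RPS28 on the other strand and a gene without a symbol on the same strand, with which reads could be shared.

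The other 10 genes that fell in both mutants were NDUFA1, NDUFA2, NDUFA4, NDUFA11, NDUFB4, NDUFB5, NDUFB8, NDUFC1, NDUFS5 and NDUFV3, with log2 fold changes of -0.09 to -0.18 in G245S and -0.09 to -0.24 in R273H. The NDUFB5 call in R273H (edgeR adjusted p = 0.0357) was lost in DESeq2, with upper-quartile normalization, without a filter and with either trend removed. It was also lost with dishes 1 and 2 alone, and without WT dish 2, WT dish 3, G245S dish 2 or any R273H dish. NDUFA4, the gene with the highest density, had 294, 304 and 315 CPM in WT, 289, 285 and 275 CPM in G245S, and 272.6, 274 and 287 CPM in R273H. The mutant dishes lay just below WT. The changes were -0.11 ± 0.03 and -0.13 ± 0.03 (edgeR adjusted p = 0.00742 and 0.00103), and neither was called once the length and GC trend was removed (-2.3e-05 and -0.04). The G245S call was also lost with dishes 1 and 2 alone (-0.06) and without WT dish 3 or G245S dish 3, with an adjusted p of at most 0.999 over all alternatives.

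NDUFB10 and NDUFA10 were the membrane-arm subunits that rose. NDUFB10, a subunit with disulfide bonds on the intermembrane-space side (ENSG00000140990, chromosome 16, positions 1959538 to 1961975, plus strand), had 178, 173 and 178 CPM in WT, 202, 192 and 199 CPM in G245S, and 194, 191 and 192 CPM in R273H. NDUFA10, which has a nucleoside kinase fold, had 137, 138 and 143 CPM in WT, 152, 149.8 and 148 CPM in G245S, and 161, 149 and 159 CPM in R273H. In both genes the mutant dishes lay above WT. NDUFB10 changed by 0.17 ± 0.03 and 0.13 ± 0.03 (edgeR adjusted p = 5.91e-05 and 0.000744) and NDUFA10 by 0.11 ± 0.03 and 0.17 ± 0.03 (0.0159 and 0.000185). Without WT dish 1, WT dish 2 or G245S dish 1 the NDUFA10 call in G245S was lost, with an adjusted p of up to 0.0715 over all alternatives.

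The core subunits had log2 fold changes on both sides of 0. In G245S, 0 of the 7 fell and 1 rose, with edgeR adjusted p-values of 0.147 to 0.499 for the other 6. In R273H, 2 fell and 2 rose. The background over 19820 genes was 12.1% falling and 12.6% rising with G245S, and 14.6% and 14.2% with R273H. Whether the counts of the 7 core subunits depart from this background was not tested. NDUFV1, NDUFV2 and NDUFS1 form the NADH-oxidizing tip of the peripheral arm, whereas NDUFS3, NDUFS7 and NDUFS8 belong to the part that passes electrons to ubiquinone.

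At the tip, NDUFV1, which binds NADH and FMN, had 229, 230.5 and 221 CPM in WT, 221, 221 and 211 CPM in G245S, and 207, 213 and 205 CPM in R273H. R273H lay below every WT dish (-0.12 ± 0.03, edgeR adjusted p = 0.00174), and G245S overlapped with WT (-0.06 ± 0.03, edgeR adjusted p = 0.147). The direct difference was 0.06 (95% interval 0.005 to 0.12, edgeR adjusted p = 0.271), so the mutants were not shown to differ.

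NDUFS1, the longest of the 37 genes and the least dense, carries iron-sulfur clusters. It had 173, 174 and 183 CPM in WT, 179, 179 and 185 CPM in G245S, and 189, 191 and 188 CPM in R273H. R273H was above WT without overlap (0.10 ± 0.03, edgeR adjusted p = 0.0112), whereas G245S overlapped with WT (0.03 ± 0.03, edgeR adjusted p = 0.438). The R273H call was lost without WT dish 1, WT dish 2 or R273H dish 2 and with the length and GC trend removed, with an adjusted p of at most 0.0663.

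NDUFV2, which carries an iron-sulfur cluster, had the lowest level of the 37 genes. It had 59.6, 64.2 and 60.9 CPM in WT, 61.8, 63.4 and 69.3 CPM in G245S, and 62.9, 67.8 and 68.9 CPM in R273H. All groups overlapped, and the changes of 0.08 ± 0.05 and 0.11 ± 0.05 were not called (edgeR adjusted p = 0.252 and 0.0688). A pseudogene copy, NDUFV2P1, held 16.6% of their joint counts, so its level is uncertain.

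NDUFS3, a core subunit of the ubiquinone-reducing part without a cluster of its own, rose in both mutants (ENSG00000213619, chromosome 11, positions 47565336 to 47584562, plus strand). It had 162, 156 and 148 CPM in WT, 177, 173 and 167 CPM in G245S, and 173, 169.8 and 175 CPM in R273H. The mutants lay above every WT dish and overlapped with each other. The log2 fold changes were 0.15 ± 0.03 and 0.15 ± 0.03 (edgeR adjusted p = 0.00128 and 0.000685). It overlaps PTPMT1 on the same strand and CELF1 and KBTBD4 on the other.

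**Figure D3:**
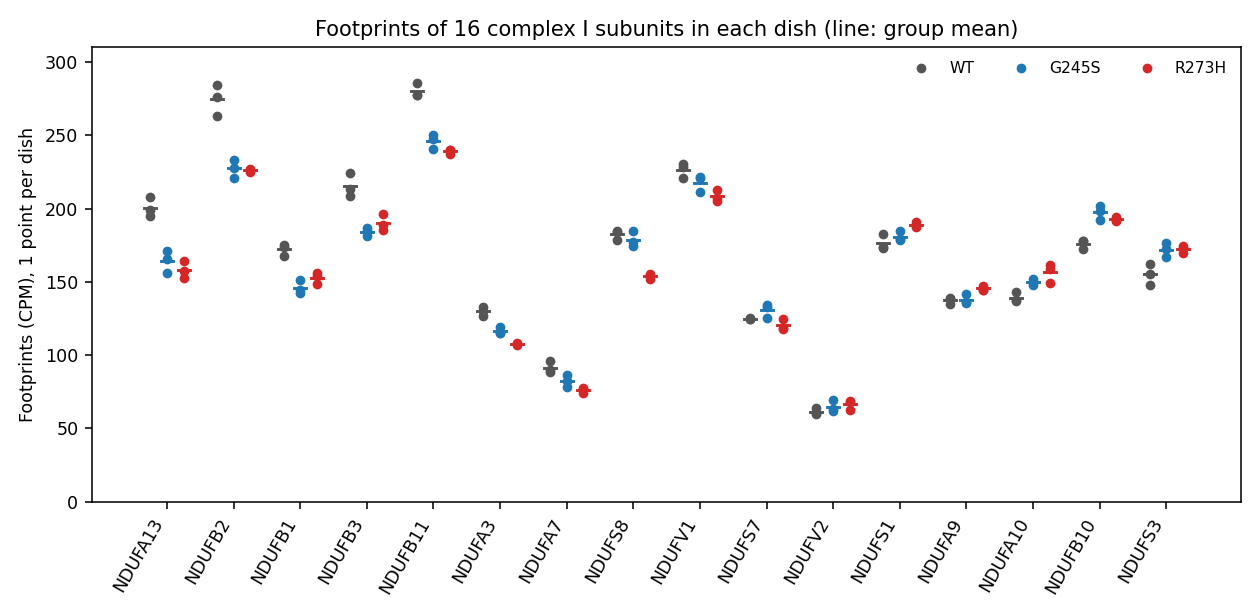
Footprints (CPM, linear axis from 0) of 16 of the genes in each dish of WT (grey), G245S (blue) and R273H (red), with a line at each group mean. WT lies above both mutants in NDUFA13, NDUFB2, NDUFB1, NDUFB3 and NDUFB11 and below them in NDUFA10, NDUFB10 and NDUFS3, and in NDUFS8 the R273H dishes (152 to 155 CPM) lie apart from the other 6.

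Compared directly, the mutants differed in 2 core subunits. NDUFS8 and NDUFS7 had more footprints in G245S than in R273H and 0 genes had fewer, where 1.86% of all genes were called higher and 0.732% lower, and the median over the 37 genes was 0.02. An unadjusted p under 0.05 was reached by 14 of the 37, and by 3120 of all 19820 genes tested. Every G245S dish lay above every R273H dish in 10 genes and below in 3, against 11.6% and 9.86% of all genes. With the length and GC trend removed, NDUFS8 and NDUFS5 were called higher and 0 genes lower (2.42% and 0.97% of all genes), and with a trend in coding length alone NDUFS8 was (2.17% and 0.955%). With dishes 1 and 2 alone 8 genes were called higher and 0 lower, where the shares of all genes rose to 3.63% and 1.54%.

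NDUFS8 carries a pair of iron-sulfur clusters on the path to ubiquinone (ENSG00000110717, chromosome 11, positions 68030617 to 68036644, plus strand). Its dishes had 185, 178 and 184 CPM in WT, 177, 185 and 174 CPM in G245S, and 152, 155 and 154 CPM in R273H. G245S overlapped with WT and every R273H dish was lower than all others. The direct difference was 0.22 ± 0.03 (95% interval 0.16 to 0.28, edgeR adjusted p = 9.11e-05), beside -0.25 ± 0.03 for R273H against WT (edgeR adjusted p = 1.97e-07) and -0.03 ± 0.03 for G245S against WT (edgeR adjusted p = 0.499). It was called in all 19 alternatives, with an adjusted p of at most 0.00371, and was 0.16 with the length and GC trend removed.

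NDUFS7, which holds the last cluster before ubiquinone, lies on chromosome 19 (ENSG00000115286, positions 1383527 to 1395589, plus strand). It had 125, 125 and 125 CPM in WT, 133, 134 and 126 CPM in G245S, and 118, 125 and 118 CPM in R273H. G245S lay just above every R273H dish, and neither mutant was called against WT (0.07 ± 0.03 and -0.05 ± 0.03, edgeR adjusted p = 0.148 and 0.252). The direct difference of 0.12 ± 0.03 (edgeR adjusted p = 0.0441) was lost in 11 of 19 alternatives and fell to 0.05 with the length and GC trend removed (adjusted p = 0.403). NDUFS7 and NDUFS8 are GC-rich, at 66.2% and 63.0% of the coding region. The correlation of a gene's level, relative to its mean over libraries, with its GC content was -0.42 to -0.14 in the R273H libraries. It was 0.34, 0.30 and -0.18 in G245S dishes 1, 2 and 3, and 0.26, 0.13 and -0.18 in those of WT.

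In the accessory subunits 0 of 29 passed the direct test of the main fit, where 1.86% of all genes were called higher and 0.732% lower. With a term for dish number added (the replicate block), NDUFA9 and NDUFS4 were called lower and NDUFA3, NDUFA7, NDUFB7 and NDUFS5 higher. The block called 2.28% of all genes lower and 4.09% higher. NDUFA9, a peripheral-arm subunit with a dehydrogenase fold near the ubiquinone site, had 135, 138 and 139 CPM in WT, 137, 135 and 142 CPM in G245S, and 145, 145 and 147 CPM in R273H. R273H lay above every other dish (0.08 ± 0.03 against WT, edgeR adjusted p = 0.0355). The direct difference was -0.08 ± 0.03 (edgeR adjusted p = 0.177). The call against WT was lost in DESeq2 and without WT dish 1, WT dish 2 or any R273H dish, with an adjusted p of at most 0.142.

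Coding length moved with the fold changes. Over the 37 genes, coding length and log2 fold change had a Spearman correlation of 0.62 for G245S and 0.53 for R273H, against 0.11 and 0.17 over 13615 protein-coding genes. With GC content it was -0.12 in G245S and -0.46 in R273H. These points share libraries and are descriptions. The libraries themselves differed by length. The correlation of a gene's level, relative to its mean over libraries, with coding length was -0.18 to -0.14 in WT, -0.01 to 0.12 in G245S and 0.14 to 0.19 in R273H, and so did not overlap between WT and the mutants. Its part in the changes of complex I was not tested.

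All 7 genes with coding regions under 300 nt fell in both mutants (NDUFA1, NDUFA2, NDUFA3, NDUFA4, NDUFB1, NDUFB3 and NDUFC1), with medians of -0.17 and -0.18. Of the 360 protein-coding genes of this length, 32.8% and 35.6% were called lower and 3.89% and 4.72% higher, with medians of -0.11 and -0.14. Among genes of 300 to under 600 nt, 9 of 20 fell and 1 rose in G245S and 12 fell and 1 rose in R273H, with medians of -0.07 and -0.12. The 1507 genes of this length had 23.1% and 31.5% called lower, 11.4% and 10.2% higher, and medians of -0.05 and -0.07. Of the 6 genes of 600 to under 1200 nt, 0 fell and 2 rose in G245S and 1 fell and 3 rose in R273H, with medians of 0.07 and 0.10. Over the 3784 genes of this length, 16.0% and 19.7% were lower and 13.2% and 13.5% higher, with medians of -0.008 and -0.02. Of the 4 genes of 1200 nt or more, 1 fell and 0 rose in G245S and 2 fell and 1 rose in R273H, where 12.4% and 13.1% of all such genes were lower and 17.6% and 19.3% higher. They had medians of -0.01 and -0.06, against 0.01 and 0.02 over 7964 genes. NDUFV3, which fell in both mutants, is in this class by a long canonical form of 1419 nt, so its placing is uncertain. From the shortest class to the longest, the median level of the complex I genes was 157, 183, 144 and 200 CPM. Over all genes of these classes it was 22.1, 36.3, 23.3 and 22.4 CPM, so the shares called are not at equal coverage.

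**Figure D4:**
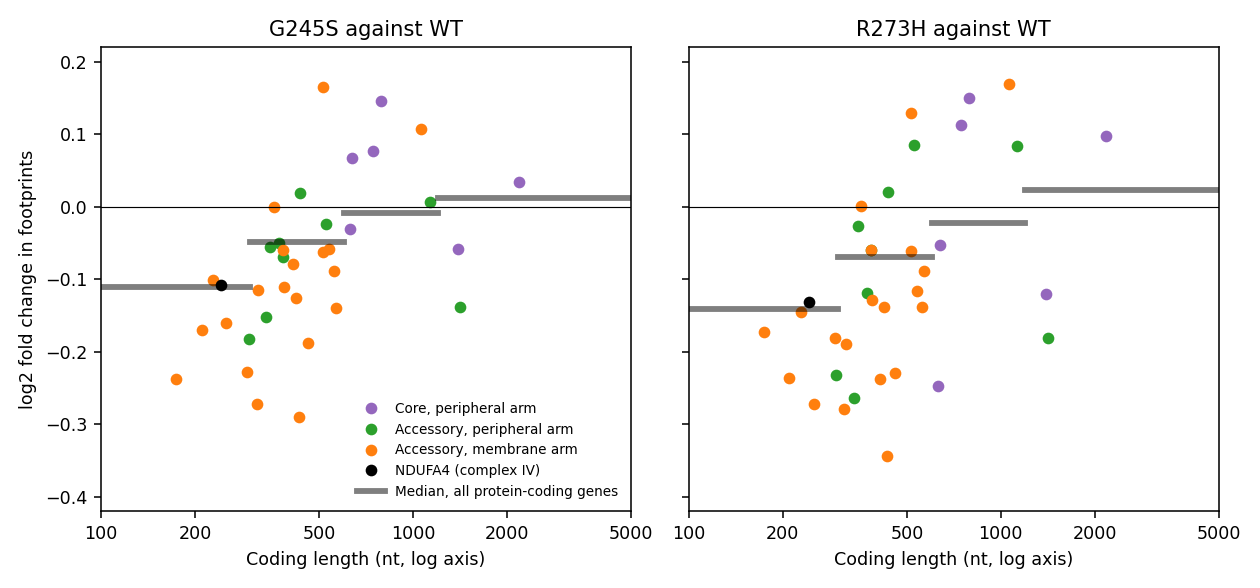
Log2 fold change in footprints against coding length (nt, log axis) for 36 of the genes in G245S (left) and R273H (right), colored by structural group. Grey bars are the medians of all protein-coding genes tested in 4 length classes, which rise with length from -0.11 to 0.01 (G245S) and from -0.14 to 0.02 (R273H). Most of the short genes lie below the bar of their class, and NDUFS3, NDUFB10 and NDUFA10 lie above it.

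Removing the length and GC trend left the direction of the larger changes. NDUFA13 had -0.24 in G245S and -0.23 in R273H (edgeR adjusted p = 7.44e-11 and 4.66e-11), and NDUFB2 had -0.18 and -0.16 (edgeR adjusted p = 7.98e-09 and 1.85e-07). NDUFB10 had 0.23 and 0.22 and NDUFS3 0.18 and 0.21. Of the 17 genes lower in G245S, 10 were still called lower, and of the 22 in R273H, 14 were. NDUFA12, NDUFC2 and NDUFV2, called in neither mutant before, were called higher in both with the length and GC trend removed. For NDUFC2 the read-through gene NDUFC2-KCTD14 held 1.33 counts per NDUFC2 count, which leaves its level uncertain. With a trend in coding length alone removed, 8 of the 37 were lower and 5 higher in G245S (14.4% and 18.7% of all genes), and for R273H 13 were lower and 9 higher (15.9% and 19.4%).

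**Figure D5:**
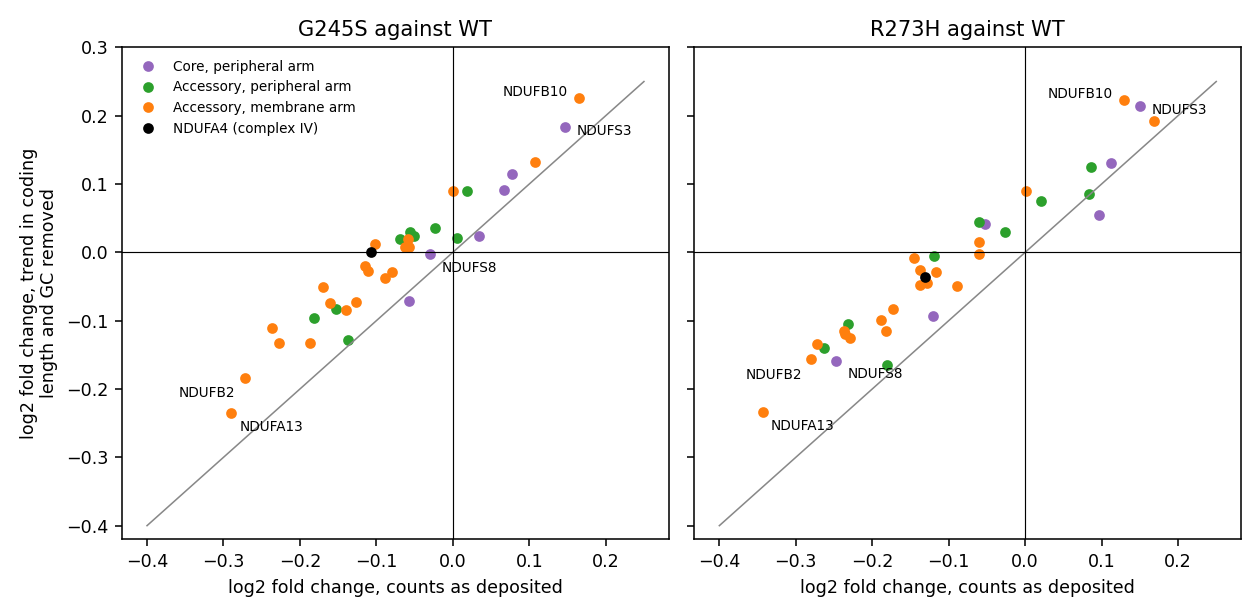
Log2 fold change of 36 of the genes against WT with the counts as deposited (horizontal axis) and with the length and GC trend removed (vertical axis), for G245S (left) and R273H (right), colored by structural group. The grey line marks equal values. Most points lie above it, and the median over all 37 genes moves from -0.07 to -2.3e-05 (G245S) and from -0.12 to -0.03 (R273H).

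Proteins that build complex I were called in both directions. Of 19 assembly factors, 3 were lower and 3 higher in G245S (median 0.002), while in R273H 4 were lower and 4 higher (median 0.01). These counts lay near the shares of all genes called, 12.1% and 12.6% for G245S and 14.6% and 14.2% for R273H. NDUFAF6, an early assembly factor, fell most, from 17.3 ± 1.34 CPM in WT to 12.02 ± 0.583 with G245S and 11.3 ± 0.765 with R273H (-0.53 ± 0.08 and -0.61 ± 0.08, edgeR adjusted p = 2.35e-05 and 1.49e-06). NDUFAF8, the partner of NDUFAF5, also fell in both (-0.30 and -0.40), as did DMAC1, which acts on the distal membrane arm (-0.10 and -0.15).

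TMEM126B, a member of the complex that assembles the membrane arm, rose in both mutants (0.19 and 0.24, edgeR adjusted p = 0.0035 and 0.000171), and so did NDUFAF2, a chaperone of late assembly (0.15 and 0.13). TMEM70, which helps to assemble complexes I and V, rose from 68.8 ± 1.24 CPM in WT to 76.2 ± 1.84 with G245S and 83.2 ± 1.00 with R273H, and its direct difference was called (-0.13 ± 0.04, edgeR adjusted p = 0.0487). NDUFAB1 was not called in either mutant (0.02 and 0.06, edgeR adjusted p = 0.557 and 0.0691).

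Of the 7 mitochondrially encoded subunits, 3 were lower in G245S (MT-ND1, MT-ND5 and MT-ND6) and 4 in R273H (the same 3 and MT-ND2), with 0 higher and medians of -0.06 and -0.10. These are made by mitochondrial ribosomes. For these and the following counts, the shares of all genes called lower and higher were 12.1% and 12.6% in G245S, and 14.6% and 14.2% in R273H. Nuclear subunits of the other complexes gave the following counts. Complex IV had 7 lower and 0 higher of 10 in G245S and 9 and 0 in R273H (medians -0.11 and -0.15), and its genes were short too, with a median coding length of 254 nt. Complex III had 3 lower and 3 higher of 9, then 5 and 2 (medians -0.06 and -0.09). ATP synthase had 5 lower and 2 higher of 17, then 8 and 0 (medians -0.04 and -0.04). Differences between complexes were not tested.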

How the data were processed

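Per the labels and methods, the authors trimmed reads with Trim Galore and cutadapt, extracted UMIs with UMI-tools where applicable, removed rRNA with SortMeRNA and aligned to GRCh38 with STAR. The counting tool, its annotation and strand setting are not given in the sources used here. The deposited table holds expected counts per gene, without scaling, and 61.5% to 63.7% of nonzero values per library were not whole. Reads of near-identical or overlapping genes may therefore be shared out: 18 of the 37 genes have pseudogenes in the table, 19 overlap a gene on the other strand and 18 on the same strand.

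Counts were rounded and tested with edgeR 4.0.16 (R 4.3.3; TMM, filterByExpr, robust glmQLFit, glmQLFTest, two-sided) in 1 fit over the 9 libraries, with a term for group and 6 residual degrees of freedom. P-values were Benjamini-Hochberg adjusted over the 19820 genes tested, with a threshold of 0.05. The biological coefficient of variation was 2.58%. CPM used TMM-scaled totals, so a value is relative to the rest of its library. Log2 fold changes are given ± SE and CPM ± SD. Depth was 18.7 to 24.6 M counts, with 122845 to 159504 in the 37 genes. Coding length, GC content, exons and untranslated lengths are those of the canonical transcript in GENCODE v44, whose gene identifiers matched 62666 genes (99.1%). Trends were removed with a spline of 4 degrees of freedom as an offset per library. The fit was tested on simulated data for G245S against WT, with changes set in well-covered genes. It called 25 of 50 genes changed 1.1-fold and 50 of 50 changed 1.2-fold. A gene not called may therefore still have changed by 1.1-fold.

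Values per dish were given for the core subunits (with 1 gene not reported here), NDUFA4, the 5 largest called changes in each direction and mutant, genes called directly, and the highest and lowest density; of the assembly factors, those called in both mutants. The genes, lists and tests were chosen with earlier results of these data known. Alternatives were RLE and upper-quartile normalization, no filter, DESeq2 1.42.0, only the 6 libraries compared, a replicate block, removed trends, pseudogene and read-through counts added, and leaving out each dish. Dishes 1 and 2 alone, and a trend in coding length alone, were added after seeing the data. Dish numbers were not used as pairs in the main fit, because not all correlations of same-numbered dishes across groups were above 0.1. All were positive, at 0.04 to 0.23, against -0.18 to 0.06 for differently numbered dishes. Dishes of the same number thus shared a small part of their deviations, which the main fit does not model. Counts with the replicate block are given below. No sequences were printed.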

Additional observations from a re-analysis of the deposited data

Results flagged for a closer look

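NDUFS8 and NDUFS7 drew attention because their effects differed between the mutants by a test of the difference itself. NDUFS8 had 0.22 (log2, G245S against R273H, higher in 3 of 3 G245S dishes than in every R273H dish, edgeR adjusted p = 9.11e-05), with adjusted p-values of 1e-07 to 0.00371 over its alternatives. NDUFS7 had 0.12 (G245S higher in 3 of 3 dishes, edgeR adjusted p = 0.0441), with adjusted p-values of 0.00464 to 0.403 over its alternatives.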

How the results depend on the processing

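Across 19 alternatives, 32 named comparisons of a gene gave 608 values, of which 562 kept their side of the threshold, 31 lost and 15 gained a call, and none reversed. With the length and GC trend removed, calls were 11 lower and 7 higher in G245S (median -2.3e-05) and 14 lower and 8 higher in R273H (median -0.029), and the direct median was 0.010. With the trend in coding length alone removed they were 8 lower and 5 higher (median -0.0031), 13 lower and 9 higher (median -0.027), and 1 higher directly. Upper-quartile normalization gave medians of -0.056 and -0.105, and dishes 1 and 2 alone gave -0.056 in G245S. The direct count of higher genes was 1 with RLE, upper-quartile normalization and DESeq2, 4 with only the 6 libraries compared, and 8 with dishes 1 and 2 alone. Leaving out 1 dish gave 14 to 17 lower and 2 to 4 higher in G245S (median -0.086 to -0.066), 21 to 23 lower and 3 to 6 higher in R273H (median -0.13 to -0.11), and 0 lower and 1 to 5 higher directly (median 0.014 to 0.039). The R273H count of higher genes was 3 without WT dish 1, WT dish 2 or R273H dish 2, and the direct count was 5 without G245S dish 3 and 4 without WT dish 1 or WT dish 3. It was 1 without WT dish 2, G245S dish 1 or 2, or R273H dish 1 or 3. With the replicate block, calls were 21 lower and 3 higher in G245S, 24 lower and 7 higher in R273H, and 2 lower and 6 higher directly. Over all genes the block called 14.2% lower and 15% higher, 16.8% and 16.2%, and 2.28% and 4.09%, in the same order. Same-numbered dishes correlated at 0.04 to 0.23 and differently numbered dishes at -0.18 to 0.06. In the labels the dishes share only a number. The causes were not tested.

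NDUFV1, NDUFV2 and NDUFS7 were called in G245S under 2, 1 and 4 alternatives and NDUFV2 in R273H under 8. The SEs of the 37 genes were 0.02 to 0.05 (log2). They rest on the spread between dishes of the same pool and hold no spread between pools. A change common to all genes cannot be seen without a spike-in.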
